A study of Homo sapiens with 10 samples.

Results

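The genes of cholesterol and lipid synthesis, 30 of the 31017 genes in the RNA-seq count table, were followed from human embryonic stem cells (ESCs) to neuroectodermal cells (NECs). They were chosen by name for their function, with earlier results of these data known, and all 30 passed the filter on low counts. The ESCs were the line H9 (WA09), grown undifferentiated. The NECs were derived from H9 and harvested at day 7 of neural differentiation, so both cell types come from 1 line and carry no engineered allele. RNA-seq and promoter capture Hi-C (PCHi-C, which enriches ligated DNA fragment pairs that involve a promoter) were each done on 2 biological replicates per cell type. The ESC libraries held 19234087 and 25356382 counts and the NEC libraries 20793224 and 24323762. Levels below are CPM, counts scaled to a common library size after TMM normalization, given for replicate 1 and then replicate 2. By the sequencing run names in the table header, the ESC libraries shared one lane and the NEC libraries another, so lane and cell type cannot be told apart. In a bulk sample, fewer cells of a type and less RNA per cell cannot be told apart either.

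Cholesterol is built from acetyl-CoA in 2 parts. The mevalonate steps make farnesyl diphosphate, and a second series of enzymes joins it into squalene, closes the ring and trims it to cholesterol. SREBP transcription factors, held in the endoplasmic reticulum by SCAP and the INSIG proteins while sterol is plentiful, switch these genes on when sterol runs low. SREBP-2 is known mostly for cholesterol genes and the SREBP-1c form of SREBP-1 for fatty acid genes, and both work with NF-Y, which binds CCAAT boxes, and with SP1. Neural tissue makes most of its own cholesterol, and a block in the last enzyme steps is known to disturb brain development.

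RefSeq promoter windows (GRCh38.p14, 250 bases before to 50 after a gene's start) were at hand for 26 of the 30 genes (not ACAT2, FDFT1, SQLE and FASN). The motifs were searched on both strands, and none contains another. CCAAT, the NF-Y box, was found for 19 of the 26 genes (73.1%), against 39.7% of all 27305 genes with a window. Of these, 14013 matched the RNA-seq count table by name (counted genes below, not matched to the 26 for expression), and 42.4% of them had CCAAT. At least 2 CCAAT copies in a window were found for 14 of the 26 (53.8%), against 12.9% of all and 14.6% of the counted genes. Of the 14 genes with a window that were higher in NECs, 10 had CCAAT, beside the 19 of all 26. IDI1, NSDHL, EBP, DHCR7, STARD4, ACACA and ACLY, which were not called higher, also had at least 2 copies in a window. The SP1 box, GGGCGG, was found for 25 of the 26 (96.2%), against 48.3% of all and 64.0% of the counted genes. The E-box, CACGTG, was found for 4 (LSS, INSIG1, SCAP and ABCA1, 15.4%), against 8.77% of all and 10.8% of the counted genes. A strict form of the sterol regulatory element, TCACNCCAC, was found for SREBF2 alone, starting 133 bases before the gene's start (1.39% of all genes with a window had it). The sequences below are the 240 bases before the start of the genes higher in NECs that held at least 2 CCAAT copies there, and of SREBF2. Each is written 5′ to 3′ on the gene's strand, with coordinates in GRCh38.p14. Capitals mark CCAAT, or ATTGG where it lies on the opposite strand, and the sterol element in SREBF2.
HMGCS1, chr5:43313413-43313652 (-): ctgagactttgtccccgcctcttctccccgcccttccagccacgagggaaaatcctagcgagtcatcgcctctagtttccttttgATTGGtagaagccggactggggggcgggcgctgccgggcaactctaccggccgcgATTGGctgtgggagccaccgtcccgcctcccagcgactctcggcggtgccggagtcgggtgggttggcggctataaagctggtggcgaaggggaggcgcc
MVK, chr12:109573554-109573793 (+): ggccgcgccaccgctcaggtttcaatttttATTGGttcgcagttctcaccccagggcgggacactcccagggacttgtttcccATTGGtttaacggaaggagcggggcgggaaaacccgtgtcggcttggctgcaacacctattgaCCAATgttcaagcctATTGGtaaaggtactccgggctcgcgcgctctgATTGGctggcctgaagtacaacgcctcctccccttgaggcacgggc
MVD, chr16:88663092-88663331 (-): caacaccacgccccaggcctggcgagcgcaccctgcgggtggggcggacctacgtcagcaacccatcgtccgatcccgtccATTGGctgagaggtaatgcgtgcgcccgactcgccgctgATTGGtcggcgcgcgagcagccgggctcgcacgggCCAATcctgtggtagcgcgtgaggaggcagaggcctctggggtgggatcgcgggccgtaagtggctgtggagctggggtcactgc
FDPS, chr1:155308626-155308865 (+): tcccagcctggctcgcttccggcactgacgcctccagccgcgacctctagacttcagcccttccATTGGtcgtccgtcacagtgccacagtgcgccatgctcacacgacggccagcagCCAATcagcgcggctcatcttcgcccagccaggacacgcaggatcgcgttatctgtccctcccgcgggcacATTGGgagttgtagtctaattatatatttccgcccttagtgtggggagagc
SREBF2, chr22:41832865-41833104 (+): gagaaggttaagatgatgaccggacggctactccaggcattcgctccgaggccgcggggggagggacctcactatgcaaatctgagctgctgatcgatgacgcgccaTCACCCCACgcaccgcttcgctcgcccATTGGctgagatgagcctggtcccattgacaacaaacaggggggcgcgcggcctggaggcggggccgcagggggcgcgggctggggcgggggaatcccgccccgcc
NPC2, chr14:74493513-74493752 (-): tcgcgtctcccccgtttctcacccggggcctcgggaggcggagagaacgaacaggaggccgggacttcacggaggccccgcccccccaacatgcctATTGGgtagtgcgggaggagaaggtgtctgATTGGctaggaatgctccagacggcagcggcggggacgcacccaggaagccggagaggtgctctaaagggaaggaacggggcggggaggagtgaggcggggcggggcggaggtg
SCD, chr10:100346993-100347232 (+): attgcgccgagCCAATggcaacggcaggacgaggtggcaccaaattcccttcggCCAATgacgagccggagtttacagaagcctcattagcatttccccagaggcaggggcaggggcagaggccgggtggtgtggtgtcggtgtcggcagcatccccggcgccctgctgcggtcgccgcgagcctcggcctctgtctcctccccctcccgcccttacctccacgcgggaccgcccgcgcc

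Most of the 30 genes had more RNA in NECs. Of the 30, 16 were higher, 1 (APOE) was lower and 13 were not called (edgeR quasi-likelihood test, Benjamini-Hochberg adjusted p under 0.05). Over all 17564 genes tested, 31.5% were higher and 29.7% lower, or 61.1% in either direction. The median log2 fold change (NEC minus ESC) was 0.44 for the 30 genes and 0.01 for all genes tested, and 26 of the 30 values were positive. Both NEC libraries lay above both ESC libraries for 21 of the 30 (42.8% of all genes tested) and below for 2 (41.0%). The changes were mostly modest. With a log2 fold change above 1.5 as a further condition, 1 gene, ABCA1, was called higher (11.4% of all genes) and none lower (9.68%), by edgeR or by DESeq2. No gene fell that far at any p: the lowest value was -1.0, for INSIG2. At the adjusted p alone DESeq2 called 2 genes lower, APOE and FASN, against 4868 of all 17564 genes tested.

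**Figure D1:**
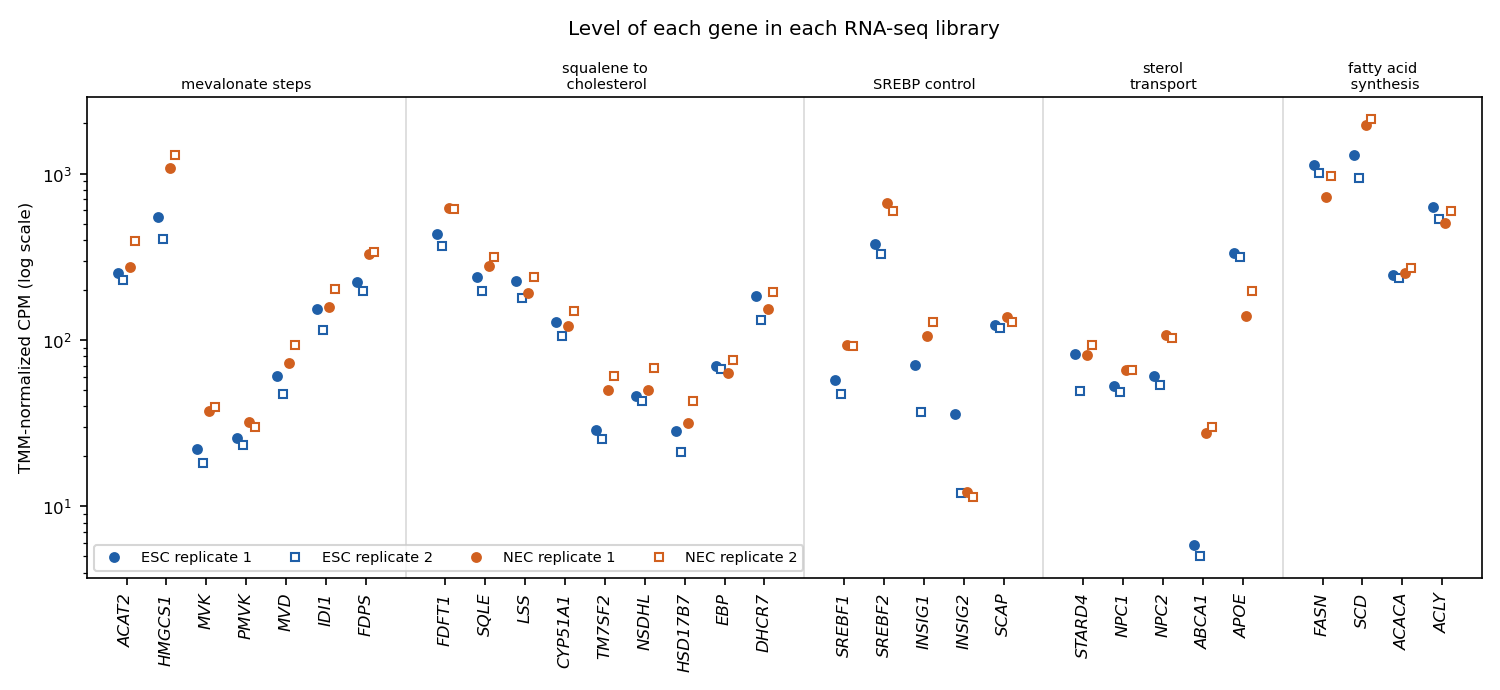
TMM-normalized CPM (log scale) of each gene in each of the 4 RNA-seq libraries, blue for ESCs and orange for NECs, grouped by role. Orange points lie above blue ones for 21 genes, and APOE and FASN show the opposite order.

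**Figure D2:**
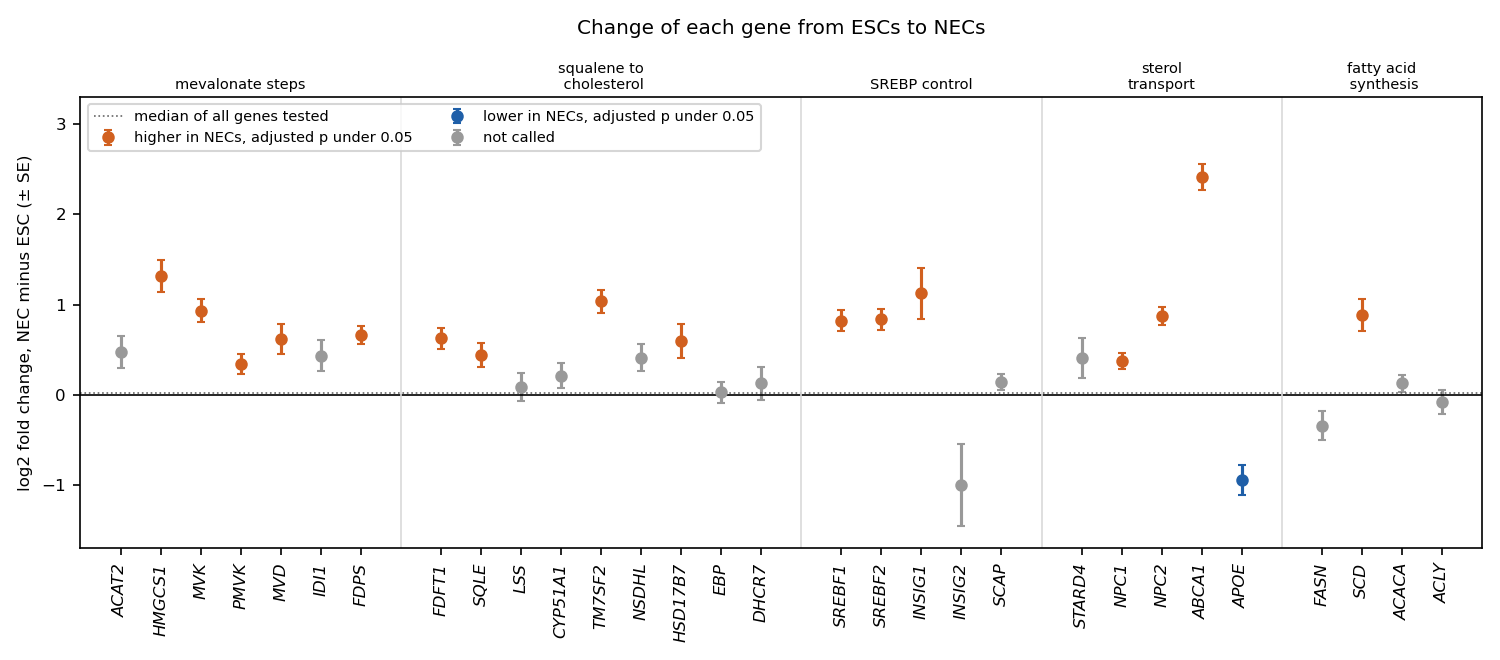
log2 fold change (NEC minus ESC) with its standard error for each gene, coloured by the edgeR call; the dotted line is the median of all genes tested. ABCA1 stands highest at 2.41, and most values lie between 0 and 1.3.

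The mevalonate steps were the group with the most calls: 5 of 7 genes rose, none fell, and the median log2 fold change was 0.62. HMGCS1, the cytosolic synthase that makes HMG-CoA, had 550.4 and 406 CPM in ESCs and 1082 and 1294 in NECs. The cell types did not overlap, and HMGCS1 rose by 1.31 on the log2 scale (SE 0.18, adjusted p = 0.00115, edgeR). By a later annotation, 37.7% of the HMGCS1 exon bases also lie in another gene (22.2% for ACAT2, 36.4% for EBP and 74.1% for CYP51A1), and the counts ignored strand. MVK, mevalonate kinase, went from 22.1 and 18.3 CPM to 37.4 and 39.5 and rose by 0.93 on the log2 scale (SE 0.13, adjusted p = 0.00118, edgeR). FDPS, which makes farnesyl diphosphate, went from 223 and 197 CPM to 329 and 336 (log2 fold change 0.66). It has 8 pseudogenes by name, whose reads may be shared with it. MVD, the decarboxylase, and PMVK, the second kinase, rose by less, with log2 fold changes of 0.62 and 0.34. ACAT2, the cytosolic thiolase of the first step, was not called at 0.48 (adjusted p = 0.0519, edgeR), nor was IDI1, the isomerase, at 0.43 (adjusted p = 0.0673). Their NEC libraries still lay above both ESC libraries.

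From squalene to cholesterol, 4 of 9 genes rose, none fell and the median log2 fold change was 0.41. FDFT1, squalene synthase, which commits farnesyl diphosphate to sterols, had 434 and 365 CPM in ESCs and 618 and 616 in NECs (log2 fold change 0.63, SE 0.12). SQLE, squalene epoxidase, a rate-limiting step, went from 240 and 197 to 277 and 315 CPM, and rose by 0.44 on the log2 scale (SE 0.13, adjusted p = 0.0230, edgeR). TM7SF2, a sterol C14 reductase, had the largest change of the 9, from 28.7 and 25.5 to 50.1 and 60.8 CPM (log2 fold change 1.03, SE 0.13, adjusted p = 0.000839, edgeR). HSD17B7, a 3-ketosteroid reductase, rose by 0.60 on the log2 scale and has 2 pseudogenes by name. The other steps gave smaller differences. LSS, the cyclase that closes the ring, had 228 and 179 CPM in ESCs against 192 and 239 in NECs. EBP, the sterol isomerase, had 69.5 and 67.3 against 63.1 and 76.0 CPM. DHCR7, the last reductase, had 185 and 133 against 153 and 193 CPM. In all 3 the cell types overlapped, with log2 fold changes of 0.08, 0.03 and 0.13. CYP51A1, the C14 demethylase, also overlapped (log2 fold change 0.21). NSDHL, a decarboxylating dehydrogenase, did not overlap but missed the threshold (0.41, adjusted p = 0.0538, edgeR). Over both parts, 9 of 16 enzymes rose and 12 of 16 had NEC libraries above both ESC libraries. Their summed level was 2673 and 2172 CPM in ESCs and 3539 and 4149 CPM in NECs.

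Among the regulators, 3 of 5 rose. SREBF2, which encodes SREBP-2, had 377 and 329 CPM in ESCs and 665 and 595 in NECs (log2 fold change 0.84, SE 0.12, adjusted p = 0.00133, edgeR). SREBF1 went from 57.7 and 47.0 to 93.3 and 91.8 CPM, a change of nearly the same size at 0.82 (SE 0.12). INSIG1, which retains SCAP when sterol is high and is itself an SREBP target, had 70.6 and 37.1 CPM in ESCs and 105 and 129 in NECs. Its log2 fold change of 1.12 carried a larger error (SE 0.28, adjusted p = 0.0132, edgeR), since the ESC replicates differed. INSIG2, its paralog, showed the opposite sign with no call. ESC replicate 1 had 35.7 CPM, while ESC replicate 2 had 12 and the NEC replicates 12.3 and 11.4, so its difference of -1.0 on the log2 scale (SE 0.46, adjusted p = 0.0982, edgeR) rested on 1 library. It was called lower without ESC replicate 2 and without the low-count filter. SCAP, the escort, changed little in level, from 122 and 119 to 137 and 128 CPM (log2 fold change 0.14, not called).

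Sterol transport held both the largest increase and the only called decrease. ABCA1, which exports cholesterol to lipoproteins and is known as a target of LXR receptors, had 5.88 and 5.02 CPM in ESCs and 27.7 and 30.2 in NECs, 5.33-fold higher (log2 fold change 2.41, SE 0.15, adjusted p = 6.75e-05, edgeR). NPC2 and NPC1, which move cholesterol out of lysosomes, rose by 0.88 (SE 0.10) and 0.37 (SE 0.09) on the log2 scale. NPC2 had 60.8 and 53.4 CPM in ESCs against 107 and 102 in NECs. STARD4, a cytosolic sterol carrier, was not called: ESC replicate 1 (81.8 CPM) was close to NEC replicate 1 (81.6 CPM), between ESC replicate 2 at 49.6 and NEC replicate 2 at 92.9. APOE, the lipoprotein that carries cholesterol in brain, had 333 and 314 CPM in ESCs and 139 and 197 in NECs, and fell by 0.95 on the log2 scale (SE 0.17, adjusted p = 0.00327, edgeR).

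In fatty acid synthesis, 1 of 4 genes rose and the median log2 fold change was 0.02. SCD, the desaturase that makes monounsaturated fatty acids, had 1285 and 939 CPM in ESCs and 1965 and 2132 in NECs (log2 fold change 0.88, SE 0.18, adjusted p = 0.00531, edgeR). It was the most abundant of the 30 per exon length, at 212 CPM per kb in ESCs and 390.5 in NECs. ABCA1 was the least abundant, at 0.480 and 2.55 CPM per kb. FASN, the synthase, was not called, with 1129 and 1010 CPM in ESCs and 726 and 961 in NECs (log2 fold change -0.34, adjusted p = 0.107, edgeR), although both NEC values lay below both ESC values. ACACA, which makes malonyl-CoA, and ACLY, which makes cytosolic acetyl-CoA, had log2 fold changes of 0.13 and -0.08, not called.

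A further 28 genes of the same pathways, listed with the 30, split more evenly. Of these, 11 rose (39.3%, against 31.5% of all genes tested), 5 fell (29.7% of all genes tested fell) and 12 were not called. Their median log2 fold change was 0.27. The largest change was in SCD5, the brain-type desaturase, from 4.66 and 4.49 to 67.9 and 50.3 CPM (log2 fold change 3.69, SE 0.18, adjusted p = 3.30e-05, edgeR). ME1, malic enzyme, a source of NADPH for lipid synthesis, fell by 2.23 on the log2 scale. ACSS2, which makes acetyl-CoA from acetate, LPIN1, a phosphatidate phosphatase, ABCG1, a sterol exporter, and SOAT1, which esterifies cholesterol, rose by 1.71, 1.33, 1.29 and 1.07 on the log2 scale. ABCG1 rested on 11 counts in each ESC library and lost its call under DESeq2 and when either ESC replicate or NEC replicate 1 was left out. MSMO1, FADS1 and FADS2 rose by 0.64, 1.02 and 0.84 on the log2 scale; FADS1 and FADS2 overlap in the genome, and counting ignored strand. MSMO1, a sterol C4 oxidase, and FADS1 and FADS2, desaturases of polyunsaturated fatty acids, were named after their values were seen.

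The replicates of one cell type differed in a shared direction across the genes. ESC replicate 1 exceeded ESC replicate 2 for all 30 genes, against 50.4% of all genes tested, with a median log2 ratio of 0.24 (0.00 over all genes). NEC replicate 2 exceeded NEC replicate 1 for 23 of 30, against 50.5% of all genes tested, with a median log2 ratio of 0.22. In the cholesterol enzymes it did so for 14 of 16, and among the regulators for 1 of 5. The 30 genes took 0.702% and 0.576% of all counts in the ESC libraries and 0.865% and 0.969% in the NEC libraries. The gap between replicates was therefore common to these genes, which are not independent of each other, and for several of them it was as wide as the gap between the cell types. Without ESC replicate 2 the median log2 fold change of the 30 genes was 0.33, and without NEC replicate 2 it was 0.35. Without ESC replicate 1 it was 0.60, and without NEC replicate 1 it was 0.61. The median over all genes tested stayed between 0.007 and 0.024 in these fits. HMGCS1, MVK, FDPS, TM7SF2, SREBF1, SREBF2, INSIG1, NPC2, ABCA1 and SCD, 10 of the 16, kept their call under every alternative fit run. The other calls, of MVD, FDFT1, SQLE, HSD17B7, NPC1 and PMVK, were lost in at least 1.

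**Figure D3:**
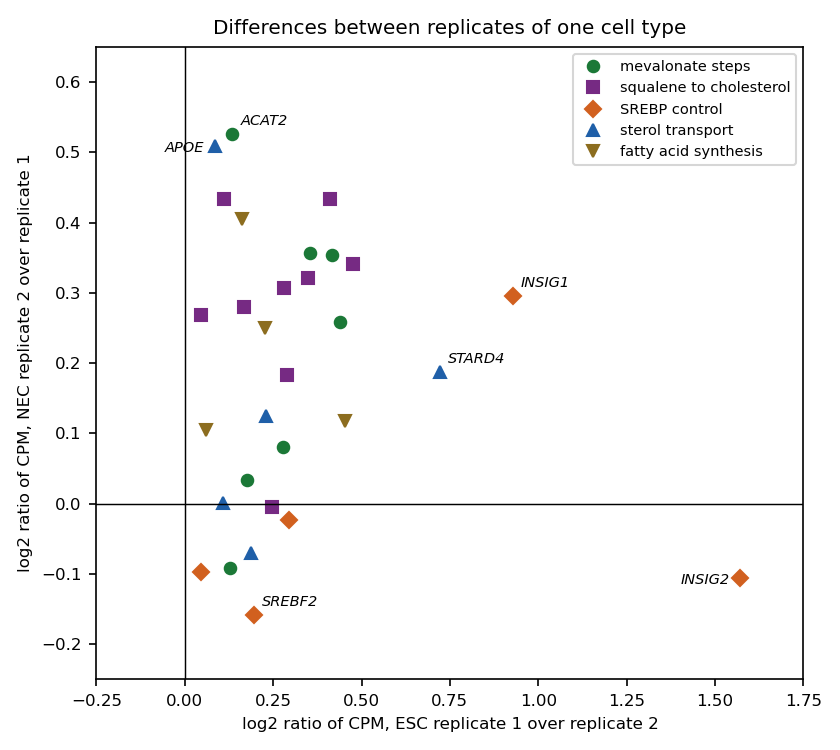
Each point is a gene, placed by the log2 ratio of ESC replicate 1 over ESC replicate 2 (x axis) and of NEC replicate 2 over NEC replicate 1 (y axis), with a marker for its role. All 30 points lie to the right of 0 and 23 lie above 0.

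Cell identity was checked with marker lists. All 6 pluripotency genes fell (summed level 4267 and 4385 CPM in ESCs, 910.5 and 1286 in NECs) and all 6 neuroectoderm genes rose (7.05 and 5.22 CPM against 393 and 309). The NEC replicates were not alike: POU5F1 stood at 31 CPM in replicate 1 and 111 in replicate 2, and the 5 neural crest genes, of which 3 rose, summed to 123 and 39.3 CPM (19.9 and 20.9 in ESCs). All 4 mesendoderm genes fell, from 28.4 and 76.5 to 1.92 and 1.58 CPM. All 3 mesenchymal genes rose, from 105 and 89.8 to 298 and 246 CPM. Of 4 hepatic or endodermal genes, AFP and ALB rose and SOX17 and FOXA2 fell, with sums of 15.4 and 28.2 in ESCs and 49.1 and 108 CPM in NECs. The part of these cells in the results above was not tested.

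PCHi-C addressed which distal fragments each promoter touched. A promoter-interacting region (PIR) is the HindIII fragment at the other end of a pair that CHiCAGO scored at 12 or more from the fragment holding the gene's start (the bait). Of the 30 genes, 28 had such a bait in the interaction lists, and FDFT1 and HSD17B7 had none. Gene starts were those of the count table. By a newer annotation the starts of ACAT2 and CYP51A1 lie outside the baits used for them, so these baits may not hold their promoters. Another gene's start shared 15 of the 28 baits, so a contact there cannot be given to 1 gene. Among them were those of MVK with MMAB, NPC2 with ISCA2, ACACA with TADA2A and PMVK with PBXIP1. The baits of SQLE (with RP11-6D1.3), SCD (RP11-34D15.2), ABCA1 (RP11-217B7.2), STARD4 (CTC-426B10.1) and ACLY (AC091172.1) were shared as well. So were those of NSDHL (CETN2), SREBF2 (RP5-821D11.7), TM7SF2 (AP003068.9), IDI1 (WDR37), LSS (AP001469.5 and MCM3AP-AS1) and DHCR7 (NADSYN1 and RP11-660L16.2). Contacts below are named for the member gene alone. In the lists of both replicates combined, PIRs of the 28 baits numbered 110 in ESCs and 131 in NECs, and the median bait had 3 in each. The median was also 3 in each over the 18038 baits that hold a gene start, and 2 in each over all 21833 baits. The cell types shared 60 PIRs, 54.5% of those in ESCs and 45.8% of those in NECs, against 44.2% and 44.3% over all baits. The lists give scores and no read numbers. The depth of each contact is thus unknown, and a missing call does not show a missing contact.

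**Figure D4:**
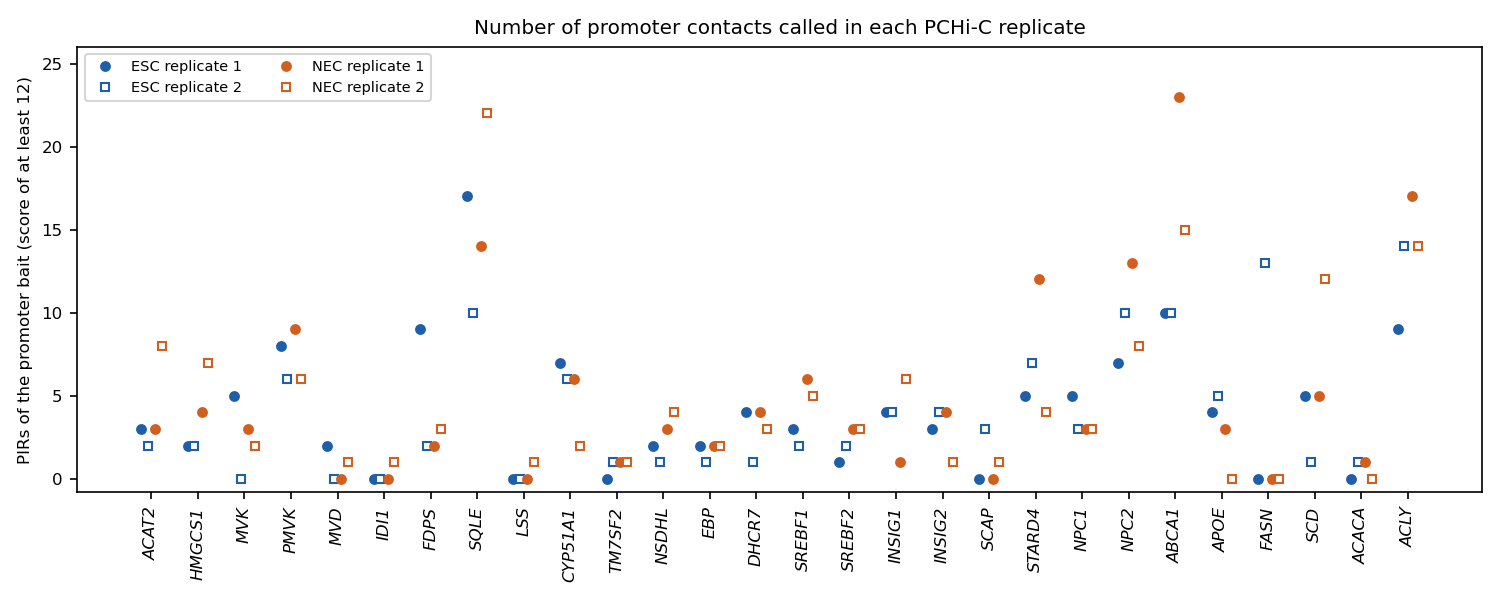
Number of PIRs called from each of the 28 promoter baits in each PCHi-C replicate, blue for ESCs and orange for NECs. SQLE, ABCA1 and ACLY have the highest numbers, and replicates of one cell type often differ by as much as the cell types do.

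By number of PIRs per replicate, 5 baits had both NEC replicates above both ESC replicates (13.1% of all baits) and 1 had both below (12.8%). ABCA1 had 10 and 10 in ESCs and 23 and 15 in NECs. HMGCS1 had 2 and 2 against 4 and 7, SREBF1 3 and 2 against 6 and 5, SREBF2 1 and 2 against 3 and 3, and NSDHL 2 and 1 against 3 and 4. In the combined lists NSDHL went the other way, with 1 PIR in ESCs and 0 in NECs. APOE was the bait below, with 4 and 5 in ESCs against 3 and 0 in NECs. RNA and PIR numbers did not always move together. HMGCS1, SREBF1, SREBF2 and ABCA1 were called higher in NECs by RNA and APOE lower, while NSDHL was not called. FDPS, TM7SF2, INSIG1 and MVD were also called higher by RNA, and their PIRs in the combined lists numbered 8, 3, 3 and 2 in ESCs and 3, 0, 1 and 0 in NECs. By replicate their numbers overlapped between the cell types. FDPS had 9 and 2 in ESCs against 2 and 3 in NECs, and TM7SF2 0 and 1 against 1 and 1. INSIG1 had 4 and 4 against 1 and 6, and MVD 2 and 0 against 0 and 1. Numbers this small are counts of calls, and with 2 replicates against 2 the smallest p that an exact permutation test (both sides) allows is 0.333, so none was made. FASN shows how far replicates could part, with 13 PIRs in ESC replicate 2 and 0 in the other 3, from a bait of 59862 bp.

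Contacts called in both NEC replicates and in neither ESC replicate numbered 9, from 4 baits of 28. Over all baits, 20.1% had at least 1 such contact. The reverse, called in both ESC replicates alone, was found once, from ACLY (21.7% of all baits had at least 1). SQLE held 4 of the 9. Its bait lies at chr8:126007452-126015447 (GRCh37, as are the fragments that follow). In NECs all 19 PIRs lay upstream and 17 of them touched MTSS1, a gene of the membrane and actin cytoskeleton, mostly its introns. In ESCs 9 of 12 did. The fragment chr8:125603601-125607128, in an MTSS1 intron 406 kb upstream, had the highest score of the SQLE bait in NECs, 26.1 in the combined list and 16.2 and 28.1 in the replicates, and was not called in any ESC list. The other 3 lay 396, 363 and 313 kb upstream, with combined NEC scores of 16.6, 17.4 and 17.7. A pair of fragments 439 and 429 kb upstream, which overlap exons of MTSS1, were called in all 4 replicates. MTSS1 itself rose from 8.16 and 6.71 to 39.6 and 38.1 CPM (log2 fold change 2.39, adjusted p = 5.47e-05, edgeR), beside 0.44 for SQLE. MTSS1 was named for these contacts, after its values were seen.

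The SCD bait contacted the stretch just beyond the 3′ end of SCD. The adjacent fragments chr10:102130740-102133240 and chr10:102133241-102140061, 27.8 and 32.4 kb downstream of the bait and outside protein-coding genes, scored 12.6 and 12.7 in ESCs and 22.7 and 24.3 in NECs in the combined lists. By replicate, the nearer was called in both NEC replicates (16.7 and 13.7) and in neither ESC replicate, and the farther in both NEC replicates (16.6 and 16.3) and in ESC replicate 1 (12.5). A fragment 88.4 kb downstream was called in NECs alone, with scores of 13.2 and 12.3. All 9 PIRs of SCD in NECs lay downstream, and 6 of 7 in ESCs. A score is a transformed, weighted p-value and depends on sequencing depth, so the difference in score between cell types has no error here.

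Contacts of the ABCA1 bait spread upstream towards and over SLC44A1, a choline transporter gene. In ESCs 7 of 8 PIRs touched SLC44A1, and in NECs 8 of 16 did. The additional NEC fragments lay mostly between the genes, with chr9:107877828-107881612, 190 kb upstream, called in both NEC replicates (13.4 and 12.5) and neither ESC replicate. A fragment 498 kb upstream, in an SLC44A1 intron, showed the same pattern with scores close to the threshold (12.1 and 12.4). In 2 fragments 63.9 and 59.0 kb downstream, in introns of ABCA1, NEC calls were made in 1 replicate each. SLC44A1 fell by 0.80 on the log2 scale (adjusted p = 0.000632, edgeR) while ABCA1 rose.

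INSIG2 had a contact in NECs with the EN1 locus, 764 kb downstream. The fragment chr2:119602892-119614586, which holds the start of EN1, a homeobox gene of the midbrain and hindbrain, scored 17.0 and 13.6 in the NEC replicates and was not called in ESCs. The neighbouring fragment, 750 kb downstream, scored 20.8 in NEC replicate 1 and 14.4 in ESC replicate 2. EN1 had 0 and 1 counts in the ESC libraries and 111 and 26 in the NEC libraries. INSIG2 was not higher in NECs, with 12.3 and 11.4 CPM there.

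**Figure D5:**
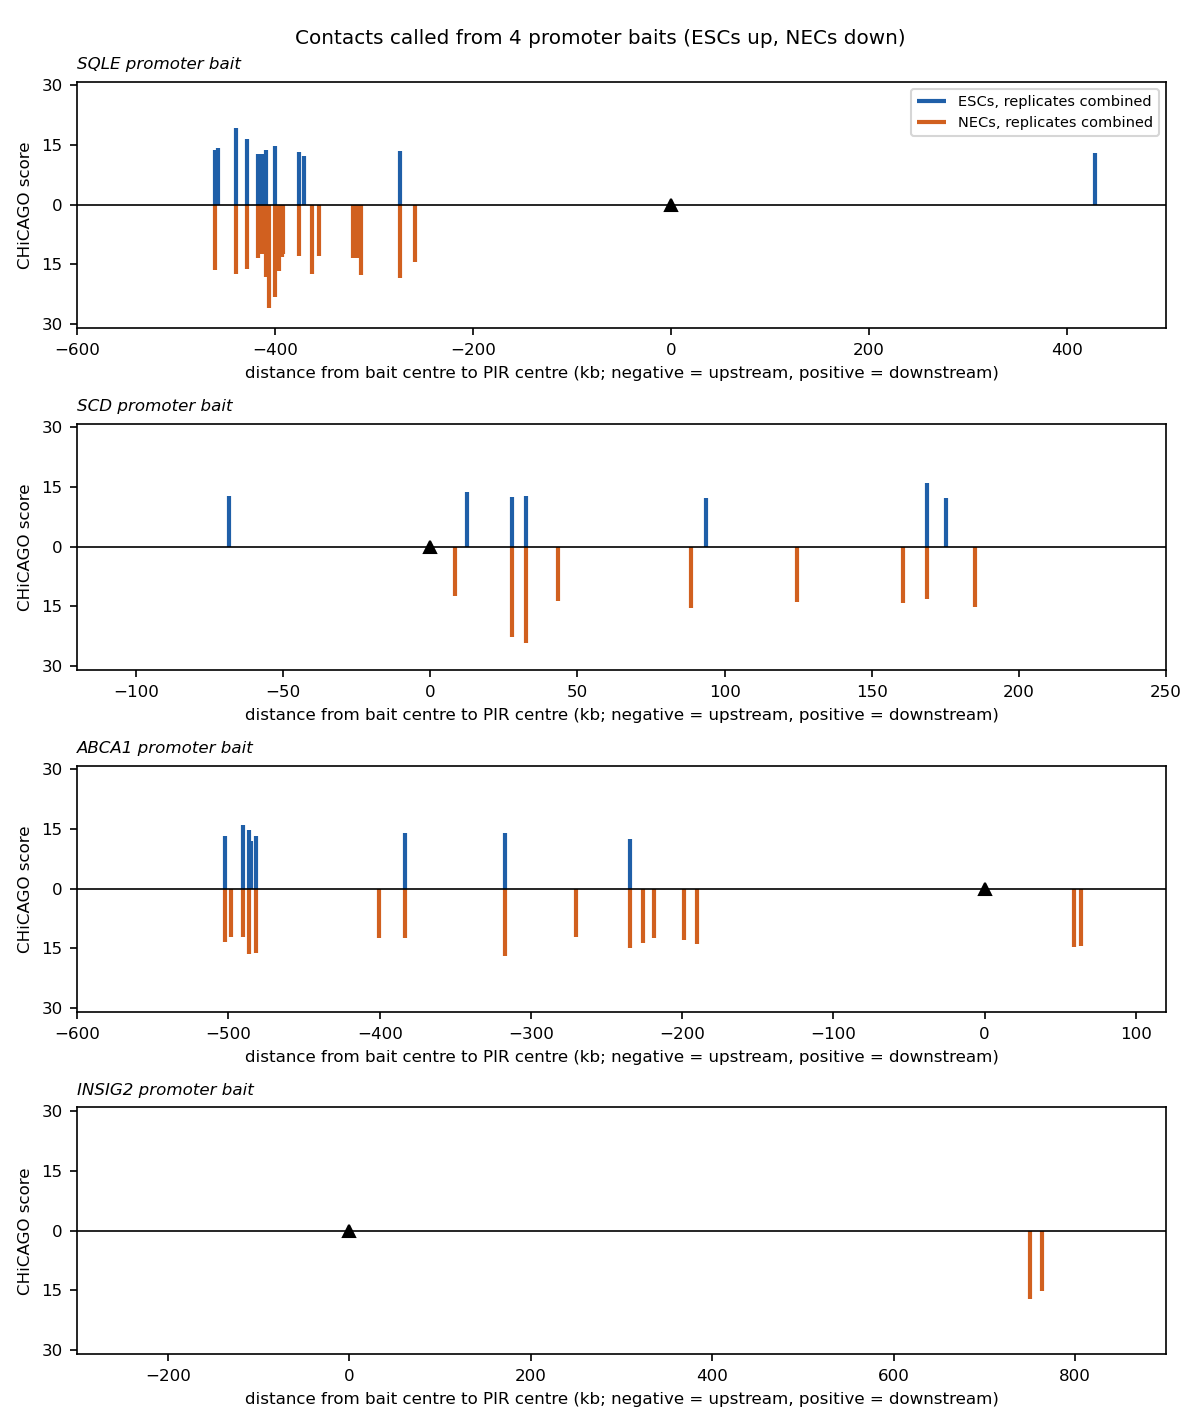
CHiCAGO score (ESCs upwards, NECs downwards, replicates combined) of each called PIR against its distance from the centre of the SQLE, SCD, ABCA1 or INSIG2 bait, which a triangle marks. Scores below 12 are not listed and appear as gaps. NEC bars near 400 kb upstream of SQLE and near 30 kb downstream of SCD reach 26.1 and 24.3.

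Some contacts were called in all 4 replicates. Of these 18 contacts, 16 ran between 2 baits (88.9%, against 57.7% of such contacts over all baits and 57.9% over baits with a gene start), and the 2 of SQLE did not. The difference in share was not tested. The 18 came from 8 of the 28 baits (28.6%, against 18.3% of all baits): ACLY and NPC2 with 4 each, PMVK with 3, SQLE and STARD4 with 2, and CYP51A1, INSIG1 and SREBF1 with 1 each. The strongest NPC2 contact ran 176 kb to the fragment with the starts of ABCD4 and VRTN, and scored 40.5 in ESCs and 36.2 in NECs. The strongest of ACLY in NECs ran 102 kb to the FKBP10 fragment (27.9 in ESCs, 40.7 in NECs). The bait used for CYP51A1, outside which a newer annotation places the gene's start, touched the GATAD1 promoter 301 kb upstream (32.3 and 26.9). INSIG1 touched the PAXIP1 promoter 304 kb upstream (16.9 and 18.9), and SREBF1 the RAI1 promoter 157 kb downstream (20.9 and 21.0). NPC2, INSIG1 and SREBF1 rose in RNA between the cell types with these contacts called in both. At the other end of the range, IDI1, LSS and ACACA had no PIR in either combined list.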

How the data were processed

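RNA-seq and PCHi-C data of H9 ESCs and day 7 NECs were used, 2 biological replicates each. The 2 conventional Hi-C samples were not analysed here. Per the study's methods and processing notes, the authors trimmed the RNA-seq reads, aligned them to GRCh37 (hg19) with TopHat2 2.0.8b and counted them per Ensembl gene without strand, and the deposited values are whole-number counts without normalization. For PCHi-C, the authors mapped to GRCh37 and called pairs of HindIII fragments with CHiCAGO. The deposited score rises as a p-value, weighted by distance, falls (a negative log), and the lists hold scores of at least 12, for each replicate and for replicates combined. All 417 fragments used here start at a HindIII site of GRCh37.

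The members and gene lists were chosen with earlier results of these data known. Counts were filtered with filterByExpr (minimum count 10), normalized by TMM and tested with edgeR 4.0.16 (quasi-likelihood, R 4.3.3) over all 17564 genes kept of 31017, with ESCs and NECs as groups. A call is a Benjamini-Hochberg adjusted p under 0.05, and a second rule adds an absolute log2 fold change above 1.5. Fold changes use a prior count of 0.125, and their SE was derived from the F statistic. DESeq2 1.42.0, the study's tool, was an alternative, with other normalizations, filters, a replicate block and the omission of each replicate. The edgeR and DESeq2 steps were tested on simulated data. Replicates are biological per the labels. Named were all members by role, up to 6 called genes of the further pathway list by size of change, and for contacts the PIRs with the highest scores or with replicated calls. Exon lengths, overlaps and pseudogene names came from a GENCODE annotation of GRCh37, newer than the counted gene set. Distances run between fragment centres. Contacts carry no test. Python 3.11.15 was used for the lists.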

Additional observations from a re-analysis of the deposited data

How the results depend on the processing

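Of 330 values of the log2 fold changes of the 30 genes under the alternatives, 284 kept their direction and side of the threshold, 13 lost the call, 25 gained it and 8 changed sign. None of the 8 was called. With a replicate left out, LSS ran from -0.089 to 0.24, EBP from -0.12 to 0.16 and DHCR7 from -0.099 to 0.36, each negative without ESC or NEC replicate 2. ACLY ran from -0.21 to 0.048, positive without ESC or NEC replicate 1. Genes called higher numbered 16 under DESeq2 size factors or a minimum count of 50, 19 with library size alone, 17 with DESeq2, 20 without the low-count filter and 10 to 19 with a replicate left out. Genes called lower numbered 2 with DESeq2 (APOE and FASN), against 4868 of all 17564 genes tested. Without the filter they numbered 3, against 5863 of 24360. Past the fold threshold, 1 to 3 were higher and 0 to 1 lower with a replicate left out, and 4 were higher above a log2 fold change of 1. The median of the 30 genes ran from 0.33 to 0.61 with a replicate left out. For the further 28 genes, 6 to 12 were higher and 3 to 5 lower with a replicate left out, and 9 to 14 higher and 4 to 5 lower under the other fits. Deviations of ESC replicate 1 and NEC replicate 1 from their cell type means correlated at 0.074 over genes. With 2 replicates per cell type, this cannot show whether same-numbered samples were paired. With a replicate block, 18 genes were called higher, against 32.1% of all genes tested.

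For contacts, a score of at least 15 lowered the median PIR number to 1 in each cell type, and leaving out pairs of baits to 0 in ESCs and 0.5 in NECs. Baits with NEC replicates above numbered 3 at a score of 15 and 8 to 11 with a replicate left out. Those below numbered 2 at a score of 15, 0 without bait pairs and 2 to 6 with a replicate left out. Replicated contacts of NECs alone numbered 5 at a score of 15 and 14 to 85 with a replicate left out, and those of ESCs alone 2 at a score of 15, 0 without bait pairs and 6 to 62. Leaving out a replicate relaxes each condition by construction. The cause of the other changes was not tested. Unlisted scores limit any statement on absent contacts.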
